A study of Mus musculus with 6 samples.

Results

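The genes described here encode the machinery of the chemical synapse: the proteins of synaptic vesicles and of their release and recycling on the presynaptic side, and the scaffolds, kinases and adhesion partners of the postsynaptic side. The set was fixed as 46 gene symbols, 32 presynaptic and 14 postsynaptic, out of 18138 symbols on the array, and every probe carrying one of these symbols was taken. They were compared between the brains of hSRY-ON and hSRY-OFF mice, 3 arrays of each, to find whether synaptic transcripts differ. The hSRY-ON mice express human SRY, the sex-determining factor of the Y chromosome, from the early embryo on and in organs beyond the brain. The study reports that hSRY-ON pups suckled little, lacked milk in the stomach, grew more slowly and had smaller brains than controls. An effect of SRY within the brain cannot be told apart from these differences. All 6 samples were whole brains of male FVB mice (FVB/N in the study's methods) at postnatal day 6, and all carried 1 copy of the Signalox-hSRY transgene at the H11 locus. In hSRY-OFF mice the transgene was unrecombined, so its actin (CAG) promoter drove the red fluorescent protein DsRed2. In hSRY-ON mice, Cre recombinase deposited in the oocyte by Ddx4-Cre mothers had removed that cassette in the early embryo, so the same promoter drove FLAG-tagged human SRY together with EGFP, and pups without the Ddx4-Cre transgene itself were used. The promoter is active in most cell types, but which brain cells expressed SRY was not measured, and the transgene's own transcript was not analysed here.

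A nerve terminal fills vesicles with transmitter, docks them at the active zone, and fuses them with the membrane when calcium enters, through the SNARE proteins and their partners. The vesicle membrane is then retrieved by endocytosis. Across the cleft, scaffold proteins of the postsynaptic density hold glutamate receptors and kinases in place, gephyrin does so at inhibitory synapses, and neurexins and neuroligins join both sides. In the mouse brain most synapses form after birth, and several synaptic proteins are replaced by, or joined by, a paralog during the first postnatal weeks.

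Of the 46 genes, 41 had a probe, with 64 probes in all. No probe stood under the symbols Unc13a, Synj1, Shank1, Homer2 or Nlgn3. A probe was tested when its detection p-value, which says how often a negative control is as bright as the probe, was under 0.05 on at least 3 of the 6 arrays. This kept 56 probes of 36 genes, 42 probes of 27 presynaptic genes and 14 probes of 9 postsynaptic genes, and 53 of them were detected on all 6 arrays. Snap25 (ILMN_2741123), the membrane SNARE partner of syntaxin, was not detected on any array, with deposited intensities of 165, 154 and 158 on the hSRY-OFF arrays and 173, 146 and 155 on the hSRY-ON arrays. Its intensities therefore stood at background in both groups, and the probe carried no measure of this transcript. The single probes of Syt2, a calcium sensor, and Shank2, a scaffold, were likewise detected on no array, and those of Bsn, an active zone scaffold, and Nlgn1, an adhesion protein, on 1 array each. Further probes of Camk2a (ILMN_2618525), Homer1 (ILMN_2595990) and Nrxn2 (ILMN_3086209) did not pass, although other probes of these genes did.

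The median array intensity was 200 to 220, 13816 to 14377 probes were detected per array, and the correlation of log2 signals across tested probes was 0.9908 to 0.994 within groups and 0.9862 to 0.9897 between them. The second principal component set hSRY-ON array 3 apart, with a score of -22.2 against 0.0453 to 8.92 on the other arrays. General neuronal markers had tested probes for 10 of 14 genes, and their summed signal was 80740 to 84821 in hSRY-OFF and 84676 to 86517 in hSRY-ON, with 8 of 12 probes higher in hSRY-ON, although Map2, Rbfox3, Nefl and Nefh gave no tested probe. Oligodendrocyte markers (11 of 13 genes tested, Opalin and Ermn not) were lower in 16 of 17 probes, with a summed signal of 42863 to 52737 in hSRY-OFF and 33151 to 34323 in hSRY-ON. Markers of dividing cells (6 of 10 genes tested, Mki67, Bub1, Cdk1 and Ccna2 not) were lower in all 12 probes, with sums of 5170 to 5866 and 2530 to 3555. Choroid plexus markers (all 6 genes tested) were higher in all 9 probes, with sums of 15517 to 18629 in hSRY-OFF and 19048 to 23818 in hSRY-ON, and microglial markers (8 of 9 genes tested, Itgam not) in 7 of 10 probes, with 3564 to 3840 and 4370 to 4575. Astrocyte markers (8 of 10 genes tested, S100b and Glul not) were lower in 6 of 11 probes (sums of 44611 to 44774 and 42933 to 48562). Endothelial markers (7 of 9, Kdr and Abcb1a not) were lower in 5 of 8 (7914 to 8128 and 6683 to 7896). At an adjusted p under 0.05 in limma, 7 dividing-cell, 3 oligodendrocyte and 2 astrocyte probes were called lower in hSRY-ON. Called higher were 1 neuronal, 1 choroid plexus and 1 endothelial probe, beside 2.17% of all tested probes called in either direction. The part of these lists in the synaptic values below was not tested, and in whole brain fewer cells of a type and less RNA per cell cannot be told apart.

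No synaptic probe differed between the groups at an adjusted p under 0.05. The limma fit called 0 of the 56 probes, where 2.17% of all 14215 tested probes were called (1.32% lower and 0.844% higher in hSRY-ON), and the lowest adjusted p among the synaptic probes was 0.0595, for Slc17a7. At an unadjusted p under 0.05 there were 5 probes (8.93%), all lower in hSRY-ON, against 20.9% of all tested probes (10.9% lower and 10.1% higher). This share depended on the processing, with 13 probes (23.2%, against 24% of all) without background correction and 16 (28.6%, against 24.1%) with limma's trended and robust prior, 2 of them higher in hSRY-ON in each. Of the 56 probes, 38 were lower and 18 higher in hSRY-ON, and the median log2 fold change (hSRY-ON minus hSRY-OFF) was -0.08, beside 0.0048 for all tested probes. The absolute log2 fold change had a median of 0.11 for the synaptic probes and 0.14 for all tested probes. The values ran from -0.63 to 0.30.

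The intervals show what sizes of change these arrays leave possible. The 95% interval of the log2 fold change lay within ±0.5 for 45 of the 56 synaptic probes, compared with 8997 of the 14215 tested probes, and within ±1 for all 56. The 3 hSRY-ON values lay wholly below the 3 hSRY-OFF values for 14 synaptic probes (25%), and for none did they lie wholly above. Over all tested probes the groups did not overlap for 27.7%, of which 14.2% of probes were lower and 13.5% higher in hSRY-ON, so the overall share of synaptic probes without overlap was near the background. The 14 probes belonged to Slc17a7, Cplx1, Stx1a, Syn1, Syn2, Syngr1, Syngr3 and Amph (with 2 probes) on the presynaptic side and to Camk2a, Dlg3, Dlg4 and Homer1 (with 2 probes) on the postsynaptic side.

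**Figure D1:**
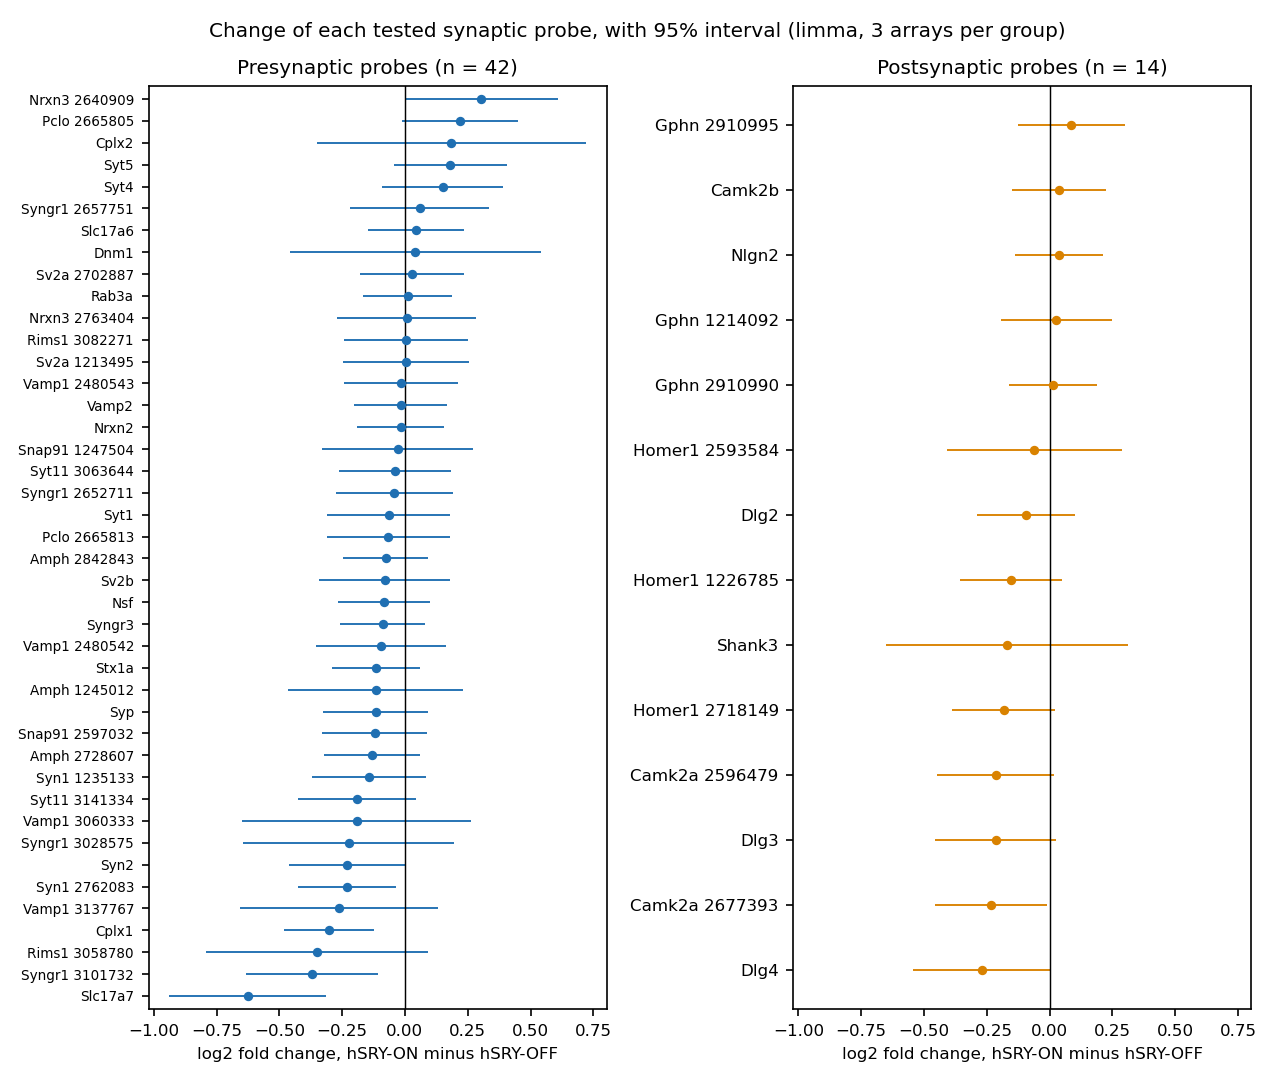
Log2 fold change (hSRY-ON minus hSRY-OFF, horizontal axis) of each tested synaptic probe with its 95% interval from the limma fit, 42 presynaptic probes on the left and 14 postsynaptic probes on the right, with the number of the probe where a gene has several. Most points lie just left of 0, the lowest is Slc17a7 at -0.63 and the highest Nrxn3 at 0.30.

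The largest difference among the vesicle proteins was in Slc17a7, which encodes VGLUT1, a transporter that loads glutamate into vesicles. Its probe (ILMN_2618244) had normalized log2 signals of 11.69, 11.92 and 11.89 on the hSRY-OFF arrays and 11.22, 11.43 and 10.98 on the hSRY-ON arrays. All 3 hSRY-ON values lay below all 3 hSRY-OFF values, and the difference of the means exceeded the range within either group. The log2 fold change was -0.63 (SE 0.13, 95% interval -0.94 to -0.32), a change of -35.2% on the linear scale, with an unadjusted p of 0.0020 and an adjusted p of 0.0595 in limma. This probe stood next to the threshold: its adjusted p lay between 0.000651 and 0.167 over the 15 alternative settings, and it was called in 5 of them. With the replicate block, or without any 1 array except hSRY-ON array 3, at most 1 probe of the whole array was called. Slc17a6, which encodes the related transporter VGLUT2, had log2 signals of 13.34, 13.32 and 13.30 in hSRY-OFF and 13.36, 13.46 and 13.28 in hSRY-ON (ILMN_2922321). Its groups overlapped, with a log2 fold change of 0.05 (95% interval -0.15 to 0.24, adjusted p = 0.796), which was -0.0040 without hSRY-ON array 2.

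The promoters of Slc17a7, Slc17a6, Cplx1 and Syn1 are shown because SRY acts by binding DNA: Slc17a7 and Cplx1 had the lowest p-values of the set, Slc17a6 is the paralog of the first, and Syn1 held motifs that few windows hold. Each sequence is the 250 bases before the RefSeq start in assembly GRCm38.p6, 5′ to 3′ on the strand of the gene: chr7:45163671-45163920 (plus) for Slc17a7, chr7:51621580-51621829 (plus) for Slc17a6, which has a second start, chr5:108550028-108550277 (minus) for Cplx1 and chrX:20920919-20921168 (minus) for Syn1. Capitals mark the GC box CCGCCC or GGGCGG, the cAMP response element TGACGTCA, and the left part of the RE1 element, TTCAGCACC or GGTGCTGAA, to which the repressor REST binds.
Slc17a7: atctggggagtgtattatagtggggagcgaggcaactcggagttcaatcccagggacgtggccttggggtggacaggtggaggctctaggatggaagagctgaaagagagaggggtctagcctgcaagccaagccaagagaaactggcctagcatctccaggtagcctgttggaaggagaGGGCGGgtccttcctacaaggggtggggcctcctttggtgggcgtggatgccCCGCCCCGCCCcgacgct
Slc17a6: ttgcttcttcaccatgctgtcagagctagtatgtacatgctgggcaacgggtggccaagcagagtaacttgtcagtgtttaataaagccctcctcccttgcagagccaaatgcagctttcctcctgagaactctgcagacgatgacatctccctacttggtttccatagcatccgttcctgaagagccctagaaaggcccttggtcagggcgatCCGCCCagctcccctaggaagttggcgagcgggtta
Cplx1: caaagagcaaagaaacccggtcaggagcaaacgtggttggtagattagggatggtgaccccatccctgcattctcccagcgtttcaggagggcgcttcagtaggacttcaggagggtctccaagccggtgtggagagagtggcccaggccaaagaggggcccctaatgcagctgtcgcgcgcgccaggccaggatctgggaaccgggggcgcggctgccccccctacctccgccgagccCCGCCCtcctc
Syn1: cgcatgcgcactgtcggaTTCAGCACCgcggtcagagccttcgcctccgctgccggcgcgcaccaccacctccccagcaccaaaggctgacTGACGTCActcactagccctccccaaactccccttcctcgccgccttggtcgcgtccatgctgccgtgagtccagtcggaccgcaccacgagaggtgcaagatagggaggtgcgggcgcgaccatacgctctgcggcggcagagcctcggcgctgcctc
The Slc17a7 window held 3 GC boxes, of which the last pair overlap by a base, and the windows shown for Slc17a6 and Cplx1 held 1 each. The window of the second Slc17a6 start, not shown, held no GC box. The Syn1 window held no GC box but 1 cAMP response element and 1 left part of RE1.

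Windows were found for 36 of the 46 genes (55 windows, as some genes have several starts). Letters of the core that SOX and SRY proteins recognise, AACAAT or ATTGTT, were in 0 of these 55 windows, and in 9.42% of the 32851 windows of the whole table. The GC box was in 26 of the 55 windows (47.3%) against 32.7% of all windows. The left part of RE1 was in 2 windows (3.64%), those of Syn1 and Nlgn1, against 0.301%, and the cAMP response element in 1 (1.82%), that of Syn1, against 1.55%. Both strands were searched, and these matches describe letters in a short window only.

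The synapsins, which tether vesicles in the reserve pool, had 3 tested probes, all with negative values. For Syn1 (ILMN_2762083), log2 signals were 12.50, 12.58 and 12.52 in hSRY-OFF and 12.32, 12.20 and 12.38 in hSRY-ON, without overlap. The log2 fold change was -0.23 (SE 0.082, 95% interval -0.43 to -0.04, adjusted p = 0.172). The second Syn1 probe (ILMN_1235133) gave -0.14 (SE 0.097, adjusted p = 0.442), and its groups overlapped. Syn2 (ILMN_1215972) had log2 signals of 12.44, 12.21 and 12.25 in hSRY-OFF and 12.05, 12.18 and 11.98 in hSRY-ON. These groups were separate by a small margin, with a log2 fold change of -0.23 (SE 0.098, 95% interval -0.46 to 0.0015, adjusted p = 0.241).

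Synaptogyrins are membrane proteins of the vesicle, and the 4 tested probes of Syngr1 did not give the same value. Probe ILMN_3101732 had log2 signals of 8.84, 9.19 and 8.95 in hSRY-OFF and 8.52, 8.70 and 8.64 in hSRY-ON. The groups did not overlap on this probe, and the log2 fold change was -0.37 (SE 0.11, 95% interval -0.63 to -0.11, adjusted p = 0.126). The other 3 Syngr1 probes gave -0.22 (ILMN_3028575), -0.04 (ILMN_2652711) and 0.06 (ILMN_2657751), each with overlapping groups, so the difference was not shared by all probes of the gene. Syngr3 was bright and tightly measured, with a log2 fold change of -0.09 (SE 0.072) and no overlap between the groups.

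The remaining vesicle proteins lay close to 0. Syp, encoding synaptophysin, an abundant protein of the vesicle membrane, gave -0.12 (95% interval -0.33 to 0.09). Rab3a, a small GTPase of docking, gave 0.01 (95% interval -0.17 to 0.19), the vesicle glycoprotein gene Sv2a gave 0.0028 and 0.03 on its probes, and Sv2b gave -0.08. Over all 15 vesicle probes, 10 were lower and the median log2 fold change was -0.09, and 3 (20%) had an unadjusted p under 0.05, near the 20.9% of all tested probes.

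Among the proteins of membrane fusion, 8 of 9 probes were lower, with a median of -0.10. Cplx1 encodes complexin 1, which binds the assembled SNARE complex, and its probe (ILMN_1226042) had log2 signals of 13.99, 14.09 and 13.99 in hSRY-OFF and 13.69, 13.70 and 13.77 in hSRY-ON. All hSRY-ON values lay below all hSRY-OFF values, and the spread within each group was small. The log2 fold change was -0.30 (SE 0.076, 95% interval -0.48 to -0.12), a change of -18.9% on the linear scale. The adjusted p was 0.0866 in limma (0.000211 to 0.245 over the alternatives), and 3 of 15 alternatives called the probe. These include the fits named for Slc17a7, in which at most 1 probe of the whole array was called. Cplx2, encoding complexin 2, had 9.59, 9.05 and 9.05 in hSRY-OFF and 9.21, 9.86 and 9.18 in hSRY-ON, a log2 fold change of 0.19 with a wide 95% interval of -0.35 to 0.72. Its groups overlapped, and the value was -0.04 without hSRY-ON array 2.

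The SNARE proteins that pull the membranes together varied little. Stx1a, encoding syntaxin 1A of the plasma membrane, gave -0.12 (95% interval -0.29 to 0.06, adjusted p = 0.422), with hSRY-ON values lower than hSRY-OFF values on every array. Vamp2, the main synaptobrevin of forebrain vesicles, gave -0.02 (95% interval -0.20 to 0.17). The 4 tested probes of its paralog Vamp1 gave -0.02, -0.10, -0.19 and -0.26, of which the last 2 were dim and not detected on every array. Nsf, the ATPase that takes spent SNARE complexes apart, gave -0.08 (95% interval -0.27 to 0.10).

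The calcium sensors and their relatives, the synaptotagmins, gave values on both sides of 0. Syt1, the sensor of fast release in the forebrain, had a log2 fold change of -0.07 (95% interval -0.31 to 0.18). Syt4 and Syt5 gave 0.15 (adjusted p = 0.443) and 0.18 (adjusted p = 0.324), and the 2 probes of Syt11 gave -0.04 and -0.19. The groups overlapped on each of these 5 probes, a number too small to set against the 27.7% of all tested probes without overlap.

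The active zone scaffolds Pclo and Rims1 each had probes that went apart. For Pclo, encoding piccolo, ILMN_2665805 gave 0.22 (SE 0.098, adjusted p = 0.256) and ILMN_2665813 gave -0.07 (SE 0.10). For Rims1, an organiser of vesicle priming, ILMN_3082271 gave 0.0054 (SE 0.10), and the dim ILMN_3058780, detected on 3 arrays, gave -0.35 (SE 0.19). With Syngr1, these were the 3 of 13 genes with several tested probes whose probes lay on both sides of 0.

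The genes of vesicle retrieval were lower in 5 of 6 probes, all by small amounts. The 3 probes of Amph, encoding amphiphysin, gave -0.08, -0.12 and -0.13, and the groups did not overlap on ILMN_2842843 or ILMN_2728607. The probes of Snap91, encoding the clathrin adaptor AP180, gave -0.03 and -0.12. Dnm1, encoding the GTPase dynamin 1 that severs the vesicle, gave 0.04 with a 95% interval of -0.46 to 0.54, and its hSRY-ON arrays differed widely, with 8.90, 8.76 and 8.09 against 8.38, 8.55 and 8.70 in hSRY-OFF.

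The neurexins, presynaptic adhesion proteins, included the highest value of the set. Nrxn3 (ILMN_2640909) had log2 signals of 9.41, 9.23 and 9.67 in hSRY-OFF and 9.75, 9.61 and 9.85 in hSRY-ON. The ranges overlapped, since the highest hSRY-OFF array exceeded the lowest hSRY-ON array, and the log2 fold change was 0.30 (SE 0.13, 95% interval -0.0010 to 0.61, adjusted p = 0.240). It was 0.20 without hSRY-OFF array 2 and 0.42 without hSRY-OFF array 3. The second Nrxn3 probe (ILMN_2763404) gave 0.0063 (SE 0.12), and the tested Nrxn2 probe gave -0.02 (SE 0.073).

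**Figure D2:**
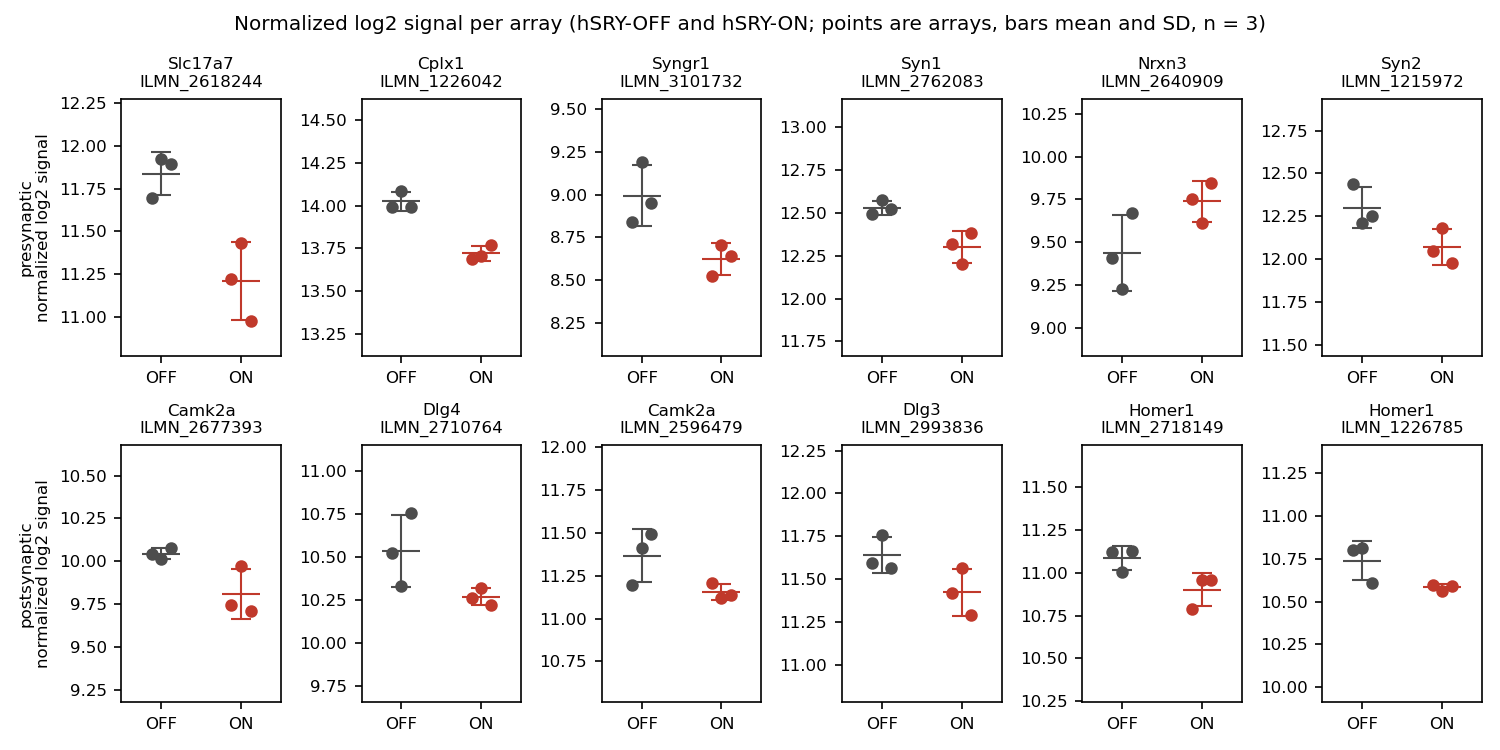
Normalized log2 signal (vertical axes, each spanning the same number of log2 units) on each hSRY-OFF and hSRY-ON array, for the 6 presynaptic and the 6 postsynaptic probes with the lowest unadjusted p, with bars for the mean and SD (n = 3). The hSRY-ON mean lies lower in every panel but Nrxn3, the points of Nrxn3 and of Camk2a ILMN_2596479 overlap, and Slc17a7 has the widest gap, 11.84 against 11.21 in the means.

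On the postsynaptic side the lowest unadjusted p belonged to Camk2a, the alpha subunit of calcium/calmodulin-dependent kinase II, a main kinase of the postsynaptic density. Probe ILMN_2677393 had log2 signals of 10.05, 10.01 and 10.07 in hSRY-OFF and 9.74, 9.97 and 9.71 in hSRY-ON. The groups did not overlap, and the log2 fold change was -0.23 (SE 0.095, 95% interval -0.46 to -0.01, adjusted p = 0.219). Probe ILMN_2596479 had 11.19, 11.41 and 11.50 in hSRY-OFF and 11.21, 11.12 and 11.14 in hSRY-ON, with overlap at 1 array, and gave -0.21 on the log2 scale (SE 0.099, adjusted p = 0.270). The beta subunit gene Camk2b gave 0.04 (95% interval -0.15 to 0.23), with overlapping groups.

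The membrane-associated scaffolds of the Dlg family, which anchor glutamate receptors, all had negative values. Dlg4, encoding PSD-95 (ILMN_2710764), had log2 signals of 10.52, 10.33 and 10.76 in hSRY-OFF and 10.26, 10.32 and 10.22 in hSRY-ON. These touched without overlapping, and the log2 fold change was -0.27 (SE 0.12, 95% interval -0.55 to 0.0071, adjusted p = 0.248), and -0.16 without hSRY-OFF array 3. Dlg3, encoding SAP102 (ILMN_2993836), had 11.59, 11.76 and 11.56 in hSRY-OFF and 11.42, 11.56 and 11.29 in hSRY-ON, again without overlap but only just, with -0.22 (SE 0.10, adjusted p = 0.281). Dlg2, encoding PSD-93, gave -0.09 (95% interval -0.29 to 0.10).

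Homer1 links receptors to the deeper scaffold, and its 3 tested probes were all lower in hSRY-ON. Probe ILMN_2718149 had log2 signals of 11.12, 11.00 and 11.13 in hSRY-OFF and 10.79, 10.96 and 10.96 in hSRY-ON, which gave -0.18 (SE 0.087, adjusted p = 0.281). Probe ILMN_1226785 had 10.80, 10.81 and 10.61 in hSRY-OFF and 10.60, 10.56 and 10.59 in hSRY-ON, which gave -0.15 (SE 0.086, adjusted p = 0.354). Neither probe had overlapping groups, while the dimmer ILMN_2593584 gave -0.06 (SE 0.15) with overlap. Shank3, a scaffold above Homer in the density, was dim and gave -0.17 with a 95% interval of -0.65 to 0.31.

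The members of inhibitory synapses had values just above 0. Gphn, encoding gephyrin, which clusters glycine and GABA-A receptors, gave 0.01, 0.03 and 0.09 on 3 probes, the last with a 95% interval of -0.13 to 0.30. Nlgn2, a neuroligin of inhibitory synapses, gave 0.04 (95% interval -0.14 to 0.21). The difference between these and the excitatory scaffolds was not tested.

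Both sides of the synapse were then set side by side. Of the presynaptic probes 29 of 42 were lower in hSRY-ON, with a median log2 fold change of -0.07, and of the postsynaptic probes 9 of 14 were lower, with a median of -0.12, beside 6958 of 14215 and 0.0048 for all tested probes. The presynaptic median was -0.039 with 1 probe per symbol. The postsynaptic median was -0.17 with 1 probe per symbol, -0.068 when hSRY-OFF array 2 was left out, -0.064 when array 3 of that group was, and -0.023 with dim probes kept. On each array, the median over presynaptic probes, taken relative to each probe's hSRY-OFF mean, was -0.07, -0.02 and -0.09 in hSRY-ON arrays 1 to 3. The postsynaptic medians on the same arrays were -0.15, -0.07 and -0.14, and the medians over all tested probes were 0.0077, 0.0083 and 0.0035. Both sides were thus below 0 on all 3 hSRY-ON arrays, and hSRY-ON array 2 was nearest to 0 for both. The hSRY-OFF arrays lay between -0.0042 and 0.022, near 0 because they set the reference. The presynaptic median exceeded the postsynaptic by 0.08, 0.05 and 0.04 on the hSRY-ON arrays, but the difference of both medians, 0.053, ran from -0.041 to 0.13 over the alternatives and turned in sign when the filter on dim probes was dropped or when hSRY-OFF array 2 or 3 was left out. The difference between the sides therefore had no stable direction in these arrays, and members of a list are not replicates of a condition.

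**Figure D3:**
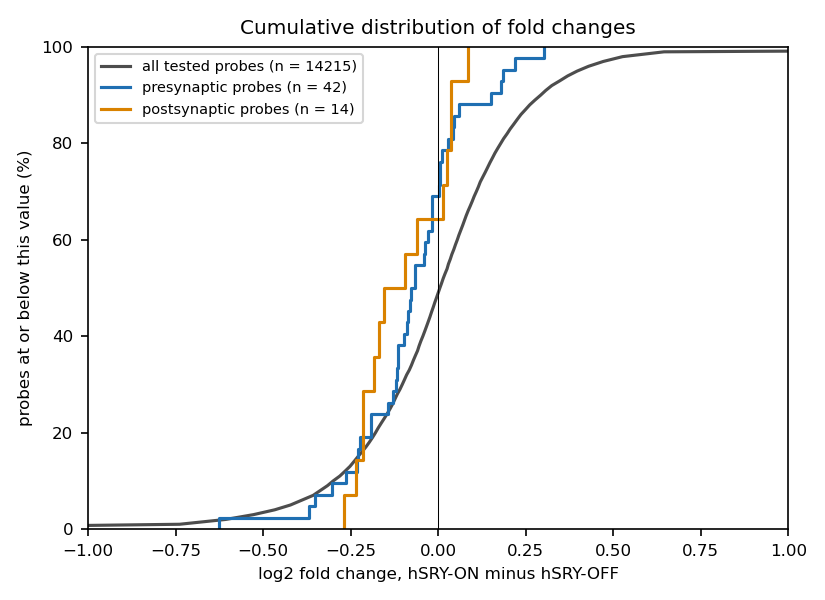
Share of probes (vertical axis, percent) at or below each log2 fold change (horizontal axis) for all 14215 tested probes, the 42 presynaptic and the 14 postsynaptic probes. The synaptic curves cross the middle at -0.07 and -0.12, left of the 0.0048 of all probes, and both are steeper, reaching neither end of the axis.

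Pairs of paralogs were compared within each array, where 1 gene of a pair is used early or widely and the other is known to come on later after birth. Of 6 listed pairs, 5 could be tested, since Syt2 was not detected. The log2 signal of Slc17a7 minus that of Slc17a6, relative to the hSRY-OFF mean, was -0.17, 0.09 and 0.08 on the hSRY-OFF arrays and -0.65, -0.55 and -0.82 on the hSRY-ON arrays. The groups did not overlap, and the change was -0.67 (SE 0.11), with an exact permutation p of 0.1 (two-sided), the smallest that 3 arrays against 3 allow, and 0.5 after Benjamini-Hochberg adjustment over the 5 pairs. This change was -0.76 to -0.59 when 1 array was left out.

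The other pairs overlapped between the groups. For Cplx1 minus Cplx2 the values were -0.39, 0.24 and 0.15 in hSRY-OFF and -0.31, -0.95 and -0.20 in hSRY-ON, a change of -0.49 (SE 0.31, exact permutation p = 0.3), which was -0.26 without hSRY-ON array 2. For Camk2a minus Camk2b the change was -0.25 (SE 0.13, exact permutation p = 0.2), and -0.16 without hSRY-OFF array 3. Dlg4 minus Dlg3 changed by -0.05 (SE 0.19, exact permutation p = 0.9) and Vamp1 minus Vamp2 by 0.00048 (SE 0.094, exact permutation p = 1). With 3 arrays a group, no pair could have passed a threshold of 0.05 in this exact test.

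**Figure D4:**
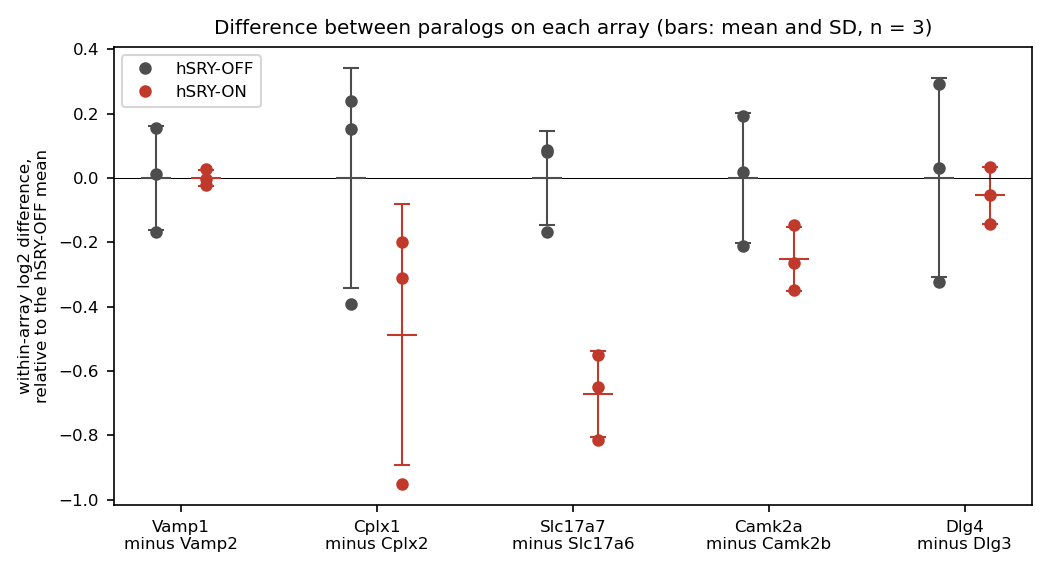
Difference in log2 signal between the genes of a pair on each array, relative to the hSRY-OFF mean (vertical axis), for 5 pairs of paralogs, with bars for the mean and SD (n = 3 per group). The groups are apart for Slc17a7 minus Slc17a6, where the hSRY-ON arrays lie at -0.82 to -0.55, and overlap for the other pairs.

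Other genes of the synapse were read from the same fit, to set the 46 genes beside genes of like function. On the presynaptic side 36 of 55 listed genes were tested, with 55 probes, of which 38 were lower and 17 higher in hSRY-ON, a median log2 fold change of -0.07, equal to that of the presynaptic members at this precision. On the postsynaptic side 32 of 46 genes were tested, with 47 probes, 23 lower and 24 higher, a median of 0.01. At an adjusted p under 0.05, 3 of the 55 presynaptic and 2 of the 47 postsynaptic probes were called, beside 2.17% of all tested probes, and the difference from the 0 of 56 members was not tested.

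The called probes belonged to 4 genes. Lin7b, an adaptor found on both sides of the synapse, fell on probes ILMN_1260389 (-0.54, SE 0.087, adjusted p = 0.0348) and ILMN_2598318 (-0.69, SE 0.12, adjusted p = 0.0386). Its other tested probes gave -0.60 (adjusted p = 0.0595) and -0.67 (adjusted p = 0.12). Itsn1, encoding the endocytic scaffold intersectin 1, fell on ILMN_2627268 by 0.46 on the log2 scale (SE 0.084, adjusted p = 0.0478). Dlgap2, a scaffold that binds PSD-95, fell from 6.86 ± 0.08 to 6.18 ± 0.06 (SD, n = 3) on ILMN_2937484, a log2 fold change of -0.68 (adjusted p = 0.0263 in limma), and its second probe gave -0.49 (adjusted p = 0.140). Lrrtm1, a leucine-rich postsynaptic adhesion protein that binds neurexins, rose from 8.91 ± 0.16 to 9.59 ± 0.10 (SD, n = 3), a log2 fold change of 0.68 (adjusted p = 0.0348 in limma). The number of such calls ran from 0 to 12 over the alternatives and was 0 when any array but hSRY-ON array 3 was left out, fits in which at most 1 probe of the whole array was called.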

How the data were processed

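Whole-brain RNA was extracted with Trizol and labelled as biotinylated cRNA, which was hybridized to Illumina MouseRef-8 v2.0 arrays. The authors deposited a table with an unnormalized mean bead intensity per probe and array, and a detection p-value beside each intensity. The study's methods name the package TCC without settings, and limma is named in the submitters' processing notes; no processed values of theirs were used. In R 4.3.3 with limma 3.58.1, the negative controls (798 per array, inferred from the detection p-values) served a normexp background correction with an offset of 16, after which intensities were put on the log2 scale and quantile normalized. Such correction widens the spread of dim probes. The 14215 probes of 25697 with detection p-values under 0.05 on at least 3 of 6 arrays were fitted with lmFit and eBayes, with the genotype of the labels as the only term, two-sided, and Benjamini-Hochberg adjustment over all of them. Every adjusted p is from this fit unless another is named, and its threshold was 0.05.

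The 3 samples of a genotype are described as biological replicates, and their number limits the precision, since arrays give no read depth. Probes of 1 gene were tested separately, and members were described by counts and medians. Per-array values were given for the 6 presynaptic and 6 postsynaptic probes with the lowest unadjusted p and for the pairs of Slc17a7 and Cplx1. Other pairs and called probes of other synaptic genes were given by change, SE or SD, and p-value. Paralog pairs used the brightest detected probe of each gene and exact permutation over the 10 distinct splits. The members, lists, pairs and rules were chosen with earlier results of these data known. All 46 symbols were found in the RefSeq table of GRCm38.p6, which also gave the promoters. Only the limma fit and its adjustment were tested on simulated data, with normalized log2 values and planted changes larger than any seen in the members. Alternatives were other background corrections, normalizations, filters and priors, 1 probe per symbol, a replicate block and leaving out each array. For paralog pairs and other synaptic genes these were added after seeing the data. The plots were made in Python 3.11.15 (matplotlib 3.10.9).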

Additional observations from a re-analysis of the deposited data

How the results depend on the processing

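The count of called synaptic probes, 0, was also 0 with cyclic loess (where 2.38% of all probes were called), without a filter on dim probes (0.479%), with 1 probe per symbol (3.56%), and when any array was left out (range 0 to 0). Of those last fits, only the one without hSRY-ON array 3 (2.98%) called more than 1 probe of the whole array, so the other 5 say nothing about the stability of that count. It was 3 without background correction (Cplx1, Slc17a7 and Syngr1, where 9.26% of all probes were called), 2 with normexp fitted on the signals and an offset of 50 (Cplx1 and Slc17a7, 6.05%), 1 with median scaling (Slc17a7, 2.34%), 1 with a detection p-value under 0.01 on all 6 arrays (Slc17a7, 6.07%), and 5 with a prior that follows signal and is robust (Cplx1, Slc17a7, Syn1, Syn2 and Syngr1, 10.2%). All of these were lower in hSRY-ON. The cause was not tested. In the same order, without correction, with the offset of 50, without a filter, with strict detection and with 1 probe per symbol, calls among the other synaptic genes (5) were 12, 10, 1, 8 and 3, and they were 12 with the robust prior and 0 to 5 with 1 array left out. The postsynaptic median (-0.12) was -0.071 without correction, -0.091 with the offset of 50, -0.023 without a filter and -0.17 with 1 probe per symbol, and the presynaptic median (-0.07) was -0.039 with 1 probe per symbol. Their difference (0.053) was 0.024, 0.025, -0.041, 0.029 and 0.13 under these 5 settings. With 1 array left out the presynaptic median was -0.072 to -0.056, the postsynaptic -0.15 to -0.064 and the difference -0.0057 to 0.090.

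Several small values changed sign when 1 array was left out. The log2 fold change ran from -0.078 to 0.065 for Vamp1, -0.044 to 0.022 for Vamp2, -0.038 to 0.36 for Cplx2, -0.0040 to 0.085 for Slc17a6 and -0.00095 to 0.064 for Camk2b. The paralog change ran from -0.081 to 0.079 for Vamp1 minus Vamp2 and from -0.22 to 0.094 for Dlg4 minus Dlg3. None of the 6 presynaptic and 6 postsynaptic probes with the lowest unadjusted p changed sign under any alternative run on them, and the remaining members were not followed one by one. Same-numbered samples of both groups had deviations that correlated by 0.0404, 0.0294 and 0.0251. Differently numbered samples were not set beside them, so whether the numbers pair samples by litter or batch was not tested. With the replicate block, 0 probes were called, among the synaptic members (lowest adjusted p 0.112), the other synaptic genes and all tested probes. Dim probes such as Shank3 and Vamp1 ILMN_3060333 had intervals that reach beyond the change seen in Cplx1 on that side, so a change of that size was not excluded on them.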
